A study of Homo sapiens with 4 samples.

Results

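The set described here holds genes named for the enzymes that build glycans, the sugar chains attached to proteins and lipids in the endoplasmic reticulum (ER) and the Golgi apparatus. Members were taken by gene symbol, from family prefixes such as GALNT, EXT, HS3ST, CHST and GLT8D, and the rule reads the symbol alone. The rule found 66 of the 14884 named genes. Of these, 57 encode enzymes or enzyme subunits, 6 are long non-coding RNAs and 2 are transcribed pseudogenes that carry a family name. The remaining one, PIGR, shares the prefix of the GPI anchor genes but encodes the receptor that carries polymeric immunoglobulin across epithelia. The label of ER and Golgi enzymes covers the set unevenly. Mucin-type GALNT enzymes, heparan sulfate enzymes and carbohydrate sulfotransferases made up 50 of the 57 enzymes, and all of these act mainly in the Golgi. Under the rule's prefixes for galactosyltransferases, sialyltransferases, MGAT enzymes, Golgi mannosidases and GPI anchor assembly, no enzyme had a named probe set. Other genes of GPI anchors and glycolipids, which those prefixes leave out, are given with the related lists at the end.

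The RNA hybridised to 4 arrays (Affymetrix Human Gene 2.0 ST) came from SH-SY5Y, an established human neuroblastoma line of sympathetic origin. Mock cells received methanol, the solvent, for 24 h (2 arrays). Treated cells received origamicin, named by the submitters as blocking protein disulfide isomerase (PDI), for the same 24 h at a dose of 30 µM (2 arrays). Both groups are cultures of this 1 line, and replicates are titled as biological, with nothing on whether they were separate passages.

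PDI enzymes make and reshuffle disulfide bonds of newly made proteins in the ER, the compartment in which N-glycans and GPI anchors are also attached. Proteins then pass through the Golgi, where GALNT enzymes start mucin-type O-glycans on serine and threonine, and where heparan and chondroitin sulfate chains are polymerised and sulfated on proteoglycans. Both kinds of chain are abundant on neural cell surfaces, and sulfate patterns on heparan chains are known to set the binding of growth factors and guidance cues.

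Values are log2 expression per probe set, and a log2 change is the origamicin mean minus the mock mean. It is printed with limma's moderated standard error (SE), from 2 arrays per group. Every SE is from the main limma fit, also where an adjusted p of a second fit is given. Probe sets differ in brightness, so levels are compared between arrays and not between genes. Array pairs within mock and within origamicin had correlations across genes of 0.995 and 0.994. Of 10 noradrenergic neuroblastoma markers, 8 were named and all 8 lay above the dim filter, with a list mean of 10.03 and 10.08 in mock cells and 9.80 and 9.81 in treated cells. All 9 mesenchymal neuroblastoma markers lay above it too, at a list mean of 7.0 on both mock arrays and of 7.39 and 7.30 on the treated arrays. The 4 named of 6 Schwann and glial markers and the 2 named of 3 epithelial markers also lay above the filter. Passing it therefore marks no cell type. Their list means ran from 4.81 to 4.89 and from 5.24 to 5.68. None of 3 blood cell markers had a named probe set. Not every marker moved with its list: HAND2 stood at 11.28 in mock and 11.32 in treated cells, and TWIST1 at 8.43 and 8.38. The shifts of the 2 neuroblastoma lists accompany every change below, and their part in it was not tested. In bulk RNA, fewer cells of a type and less RNA per cell cannot be told apart.

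Across the set, origamicin changed no glycosylation gene past an adjusted p of 0.05, and the lowest p-values belonged to enzymes on the lower side. Genes whose mean lay under 3.82, the 40th percentile of all probe sets, were left out as dim, which left 54 members and removed 12. Among the 54, 25 were higher (46.3%, beside 47.8% of all genes) and 29 lower (53.7%, beside 52.1%), with a median log2 change of -0.015, against -0.0072 over the 11883 genes tested. No member passed an adjusted p of 0.05 in limma, nor did any gene of the series (0.0% of those tested). At an unadjusted p under 0.05 there were 9 members, 16.7% of those tested, beside 16.4% of all genes tested, so the share was near the background. Split by direction, 7 were lower (13.0%, beside 8.42% of all genes) and 2 were higher (3.70%, beside 7.99%). The 7 include GLT8D2, which passed the filter through its mock level alone. With equal array medians or quantile normalization the split was 9 lower and 1 higher. That was 18.5% of the members in both settings, beside 15.8% and 16.5% of all genes. The split also moved without origamicin replicate 2, where the median change of the members was 0.017, and without mock replicate 2, where it was -0.012. In a fit that leaves out an array, a group of 1 array is assumed to vary like the other group, so its p-values rest on less information. A stricter filter at the 60th percentile let 92 genes of the series pass an adjusted p of 0.05, with 0 members among them. A second limma fit with an intensity trend, which lets the spread vary with brightness, called 4.3% of all genes at an adjusted p of 0.05 and 0 of the 54 members. Among the 47 enzymes tested, 12.8% had an unadjusted p under 0.05, beside 16.4% of all genes. Of these, 5 were lower (10.6%, beside 8.42%) and 1 higher (2.13%, beside 7.99%), with GLT8D2 among the 5.

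The groups did not overlap for 34 members, or 63.0%, beside 48.6% of all genes tested. In 15 of them the treated arrays were higher (27.8%, beside 22.7%) and in 19 lower (35.2%, beside 25.8%). The median absolute change was 0.17 for the members and 0.11 for all genes, and 16 members (29.6%) stood at least 0.25 from mock, as did 15.6% of all genes. Members were also dimmer, with a median level of 5.60 against 6.54. Their median difference between the arrays of a group was 0.11 in mock and 0.11 in treated cells, against 0.09 and 0.10 over all genes. The part of that lower level in the wider changes was not tested. The precision allowed by 2 arrays per group is limited: the 95% interval of a member's change had a median half-width of 0.24, ranging from 0.17 to 1.08.

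**Figure D1:**
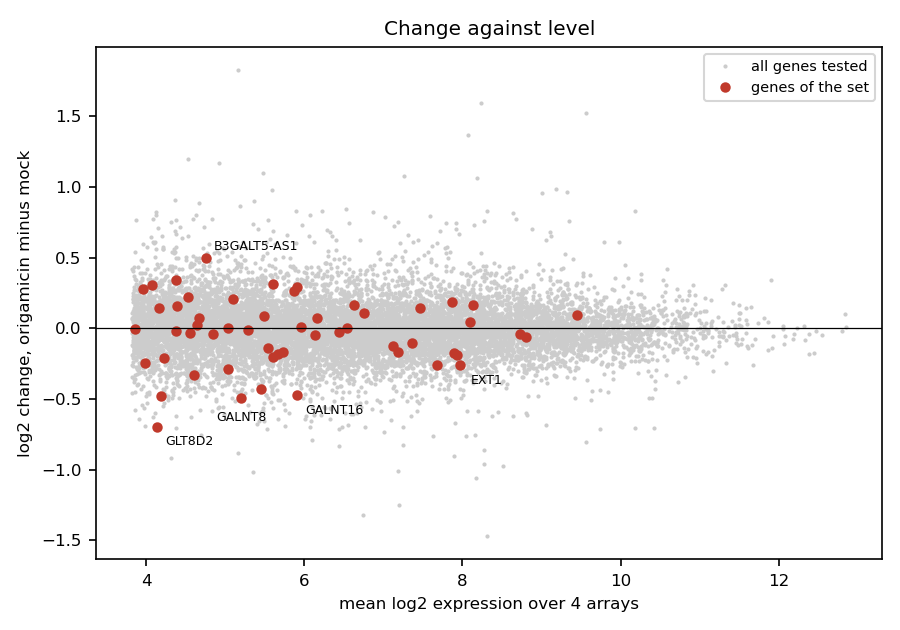
Log2 change (origamicin minus mock) against mean log2 expression over the 4 arrays, for the 11883 genes tested (grey) and the 54 tested genes of the set (red). GLT8D2, dim in treated cells, is the lowest of the set at -0.69 and B3GALT5-AS1 the highest at 0.50, and most red points lie within the grey band.

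**Figure D2:**
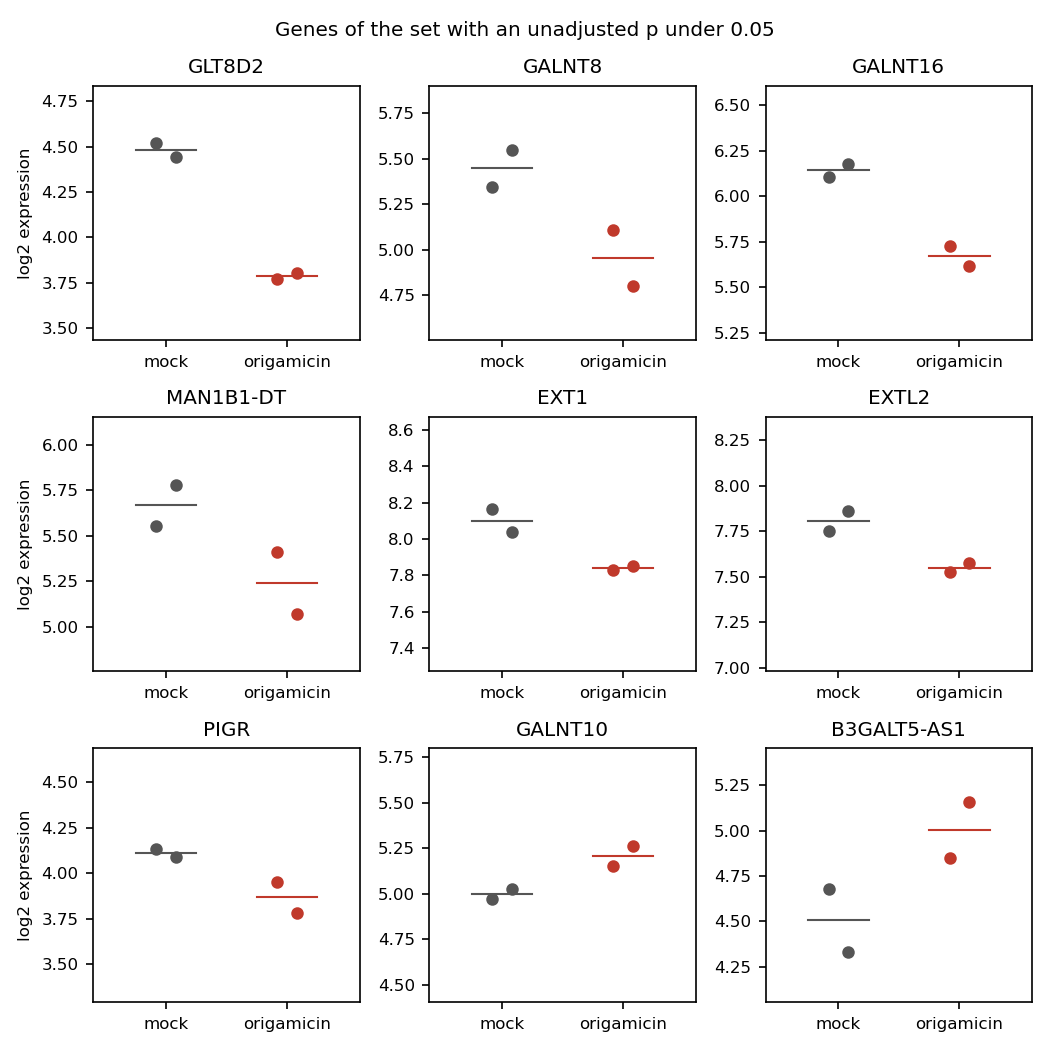
Log2 expression on each array (points) and the group mean (line) for the 9 genes of the set with an unadjusted p under 0.05, every panel spanning the same log2 range. The groups do not overlap in any panel, which choosing genes by p on these same arrays favours. Of all genes tested, 48.6% have groups that do not overlap. The treated GLT8D2 arrays, at 3.77 and 3.80, lie under the dim filter.

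The mucin-type GALNT family, named for enzymes that add the first N-acetylgalactosamine (GalNAc) of an O-glycan, moved in both directions. Of 19 GALNT enzymes, 14 were tested: 6 were higher and 8 lower, with a median of -0.03. At an unadjusted p under 0.05, 2 were lower and 1 was higher, 21.4% of those tested beside 16.4% of all genes. GALNT16 stood at 6.11 and 6.18 in mock cells and at 5.73 and 5.61 in treated cells. Its change of -0.47 ± 0.08, a 1.39-fold lower level, had an unadjusted p of 0.0024 and an adjusted p of 0.16 in limma. With an intensity trend its adjusted p was 0.053. GALNT8 stood at 5.34 and 5.55 in mock cells and at 5.11 and 4.80 in treated cells, with the treated arrays further apart than those of GALNT16. Its change was -0.49 ± 0.14 (adjusted p = 0.23 with limma). The change was -0.39 without mock replicate 2 and -0.34 without origamicin replicate 2, where the unadjusted p went from 0.019 to 0.088 and 0.060.

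GALNT10, which prefers peptides that already carry GalNAc, was the family member on the higher side. It stood at 4.97 and 5.03 in mock cells and at 5.15 and 5.26 in treated cells, a change of 0.21 ± 0.07 (unadjusted p = 0.044, adjusted p = 0.29 with limma). This was the least stable of the 9, since its p stayed under 0.05 in 4 of 12 alternative settings. GALNT14 had the largest difference on the higher side, with 5.88 and 5.58 in mock cells against 6.01 and 5.99, at 0.27 ± 0.12. The groups did not overlap, although the mock arrays lay about as far apart as the group means. The neural enzyme GALNT13 stood at 0.15 ± 0.07, with its groups not overlapping.

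The broadly expressed initiating enzymes differed little. GALNT1 stood at 9.36 and 9.44 in mock cells and at 9.45 and 9.54 in treated cells, a change of 0.09 ± 0.07 with a 95% interval from -0.10 to 0.29. GALNT2 stood at 0.05 ± 0.07 (interval -0.14 to 0.23), while its other, dimmer named probe set differed by -0.18. GALNT7, which also acts on peptides already carrying GalNAc, was at 7.95 and 8.09 in mock cells and at 7.83 on both treated arrays, a change of -0.19 ± 0.08. GALNT11 stood at -0.17 ± 0.09 and GALNT18 at -0.14 ± 0.11. The others, GALNT6, GALNT9, GALNT12 and GALNT17, lay between -0.05 and 0.08. The dim members GALNT3, GALNT5, GALNT15, GALNTL5 and GALNTL6 were not tested, and GALNT5 lay just under the filter with a mean of 3.77.

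Among heparan sulfate enzymes, the lowest p-values belonged to members of the EXT family (EXT and EXTL genes), of which 2 were higher and 3 lower. Of 16 enzymes, 13 were tested, 7 higher and 6 lower with a median of 0.0013. The 2 with an unadjusted p under 0.05 (15.4% of those tested, under the 16.4% of all genes) were both of the EXT family. EXT1, a subunit of the heparan sulfate polymerase, stood at 8.16 and 8.04 in mock cells and at 7.83 and 7.85 in treated cells. The change was -0.26 ± 0.07 (unadjusted p = 0.022, adjusted p = 0.23 with limma). The change was -0.20 without mock replicate 1, -0.25 without origamicin replicate 1 and -0.27 without origamicin replicate 2, with unadjusted p-values of 0.11, 0.078 and 0.064 from 1 array fewer. EXTL2, a transferase that acts on the linkage region of the chain, stood at 7.75 and 7.86 in mock cells and at 7.52 and 7.58 in treated cells. Its change was likewise -0.26 ± 0.07 (unadjusted p = 0.021, adjusted p = 0.23 with limma). The EXTL2 change was -0.20 without mock replicate 2 (unadjusted p = 0.10) and -0.23 without origamicin replicate 1 (unadjusted p = 0.084).

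EXT2, which forms the polymerase together with EXT1, lay on the other side. It stood at 8.09 and 8.0 in mock cells and at 8.19 and 8.23 in treated cells, a change of 0.17 ± 0.07 (unadjusted p = 0.069, adjusted p = 0.34 with limma). EXT1 minus EXT2 within an array was 0.07 and 0.04 in mock cells and -0.36 and -0.38 in treated cells. The shift of -0.43 in this difference was much larger than the spread within a group, and its exact two-sided permutation p of 0.333 is the smallest this design allows. This pair was chosen after its values were seen. EXTL3, which starts heparan chains, stood at 5.20 and 5.16 in mock cells and at 5.04 and 4.76 in treated cells, a change of -0.28 ± 0.11 (adjusted p = 0.33 with limma). EXTL1 stood at 0.07 ± 0.11.

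None of the heparan sulfotransferases had an unadjusted p under 0.05. HS2ST1, the single 2-O-sulfotransferase, stood at 8.69 and 8.81 in mock cells and at 8.63 and 8.78 in treated cells, a change of -0.04 ± 0.09 with an interval from -0.28 to 0.19. The 6-O-sulfotransferases HS6ST1 and HS6ST2 stood at 0.29 ± 0.21 and -0.18 ± 0.07. The HS6ST1 groups overlapped, with mock arrays far apart at 5.50 and 6.03. Of the 5 tested 3-O-sulfotransferases, which add the rarest of these sulfates, HS3ST6 was lowest (-0.33 ± 0.15) and HS3ST3A1 highest (0.31 ± 0.16). HS3ST1 and HS3ST5 differed by 0.0013 and 0.0021, with intervals from -0.18 to 0.18 and from -0.25 to 0.25. HS3ST3B1, HS3ST4 and HS6ST3 were dim, HS3ST4 just under the filter at a mean of 3.76.

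To show what kind of regulatory sequence these genes have, promoter windows are shown for 3 of the 6 enzymes with an unadjusted p under 0.05. Windows run from 250 bases before to 50 after the annotated start, 5′ to 3′ on the gene's strand, from RefSeq (GRCh38.p14). Capitals mark CG dinucleotides. The GALNT16 window lies on chromosome 14 from 69259908 to 69260207 (plus strand), that of GALNT10 on chromosome 5 from 154190483 to 154190782 (plus strand) and that of EXTL2 on chromosome 1 from 100894793 to 100895092 (minus strand).
GALNT16: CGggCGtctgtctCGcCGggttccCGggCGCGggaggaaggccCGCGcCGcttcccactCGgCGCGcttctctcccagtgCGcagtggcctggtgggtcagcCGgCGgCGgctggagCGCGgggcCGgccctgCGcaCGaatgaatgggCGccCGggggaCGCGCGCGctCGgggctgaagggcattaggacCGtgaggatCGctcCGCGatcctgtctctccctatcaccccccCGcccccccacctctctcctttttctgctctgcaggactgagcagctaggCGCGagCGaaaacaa
GALNT10: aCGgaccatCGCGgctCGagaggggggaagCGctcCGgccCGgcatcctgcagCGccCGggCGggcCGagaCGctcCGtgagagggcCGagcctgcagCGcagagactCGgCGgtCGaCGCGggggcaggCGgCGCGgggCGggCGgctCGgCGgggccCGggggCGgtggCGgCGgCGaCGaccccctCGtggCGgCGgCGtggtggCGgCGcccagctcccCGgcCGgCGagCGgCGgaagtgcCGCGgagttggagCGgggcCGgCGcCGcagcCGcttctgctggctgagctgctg
EXTL2: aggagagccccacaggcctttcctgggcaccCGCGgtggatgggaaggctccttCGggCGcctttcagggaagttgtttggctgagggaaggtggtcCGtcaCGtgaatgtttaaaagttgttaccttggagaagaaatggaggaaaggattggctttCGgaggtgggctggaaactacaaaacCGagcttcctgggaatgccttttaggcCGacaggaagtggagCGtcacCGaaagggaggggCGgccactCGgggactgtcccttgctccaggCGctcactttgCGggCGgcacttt
The lower GALNT16 and the higher GALNT10 both have dense CG content, with 37 and 51 CG dinucleotides, while EXTL2 has 16. The median over 27305 RefSeq windows was 14, with quartiles of 3 and 28, and over the 54 members with an entry it was 27.5. On both strands, 3 motifs of the unfolded protein response were searched: the ER stress element, the ER stress element II and the response element core TGACGTGG. They occur in 0.0806%, 0.0549% and 0.795% of all windows, and 0 of the 54 member windows held any of them. That says only that these letters are not in these windows.

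Carbohydrate sulfotransferases of the CHST family, which place sulfate on chondroitin, dermatan, keratan and other chains, held no member that stood out. Of 15 enzymes, 14 were tested, 9 higher and 5 lower, with a median of 0.06, and none had an unadjusted p under 0.05 where 16.4% of all genes did. Closest was CHST5, a sulfotransferase of N-acetylglucosamine. It stood at 5.80 and 5.82 in mock cells and at 5.67 and 5.62 in treated cells, a change of -0.17 ± 0.06 (unadjusted p = 0.051, adjusted p = 0.31 with limma). The groups did not overlap, and the gap was several times the spread within a group.

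Among the 7 enzymes of chondroitin and dermatan sulfate, 4 were higher and 3 lower. CHST11, a chondroitin 4-O-sulfotransferase, had the largest difference on the higher side of the CHST family. It stood at 5.27 and 5.62 in mock cells and at 5.82 and 5.70 in treated cells, a change of 0.31 ± 0.14 (adjusted p = 0.37 with limma). CHST14, the dermatan 4-O-sulfotransferase, stood at 7.82 and 7.72 in mock cells and at 8.05 and 7.86 in treated cells, a change of 0.18 ± 0.09. The other 4-O-sulfotransferases, CHST12 and CHST13, stood at -0.06 ± 0.07 and -0.01 ± 0.06. The 6-O-sulfotransferases CHST3 and CHST7 stood at 0.11 ± 0.12 and 0.09 ± 0.07. CHST15, which adds a further sulfate to 4-O-sulfated units, was lowest of the family at -0.20 ± 0.13, with mock arrays at 5.88 and 5.52.

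The other CHST enzymes act on different chains. CHST10, which makes the HNK-1 epitope of neural adhesion molecules, stood at 5.98 and 5.92 in mock cells and at 5.98 and 5.95 in treated cells, a change of 0.01 ± 0.06. CHST8 and CHST9, which sulfate GalNAc on glycoprotein hormones, stood at 0.22 ± 0.10 and -0.03 ± 0.06. The keratan sulfate enzyme CHST1 stood at 0.16 ± 0.15. CHST6, the corneal keratan sulfate enzyme, stood at 0.02 ± 0.16 on the probe set used, and its other probe set differed by -0.28. CHST4 had the widest error of the set (0.28 ± 0.40), with mock arrays at 3.26 and 4.38. CHST2 was dim and not tested.

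GLT8D2 had the lowest p-value of the set, with a treated level too dim to size the change. It belongs, with GLT8D1, to a small group of Golgi proteins of the glycosyltransferase 8 fold whose substrates are little defined. GLT8D2 stood at 4.52 and 4.44 in mock cells and at 3.77 and 3.80 in treated cells. Both treated arrays were lower than both mock arrays, and both lay under the dim filter of 3.82. The gene was therefore tested only because of its mock level, the sole tested member of which this is true, so that a difference in this direction was favoured by the filter. With the treated arrays raised to the filter level, the mock mean was 1.58-fold higher. This value has no error and depends on where the filter was set, which is a percentile and not a detection limit. The measured difference was -0.69 ± 0.07, and the adjusted p in limma was 0.095, or 0.21 with no filter. Of all genes tested, 53 (0.446%) were under an adjusted p of 0.1, and GLT8D2 was the one member among them. Its paralog GLT8D1 stood at 7.16 and 7.20 in mock cells and at 7.0 and 7.11 in treated cells, a change of -0.12 ± 0.07 (adjusted p = 0.48 with limma).

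**Figure D3:**
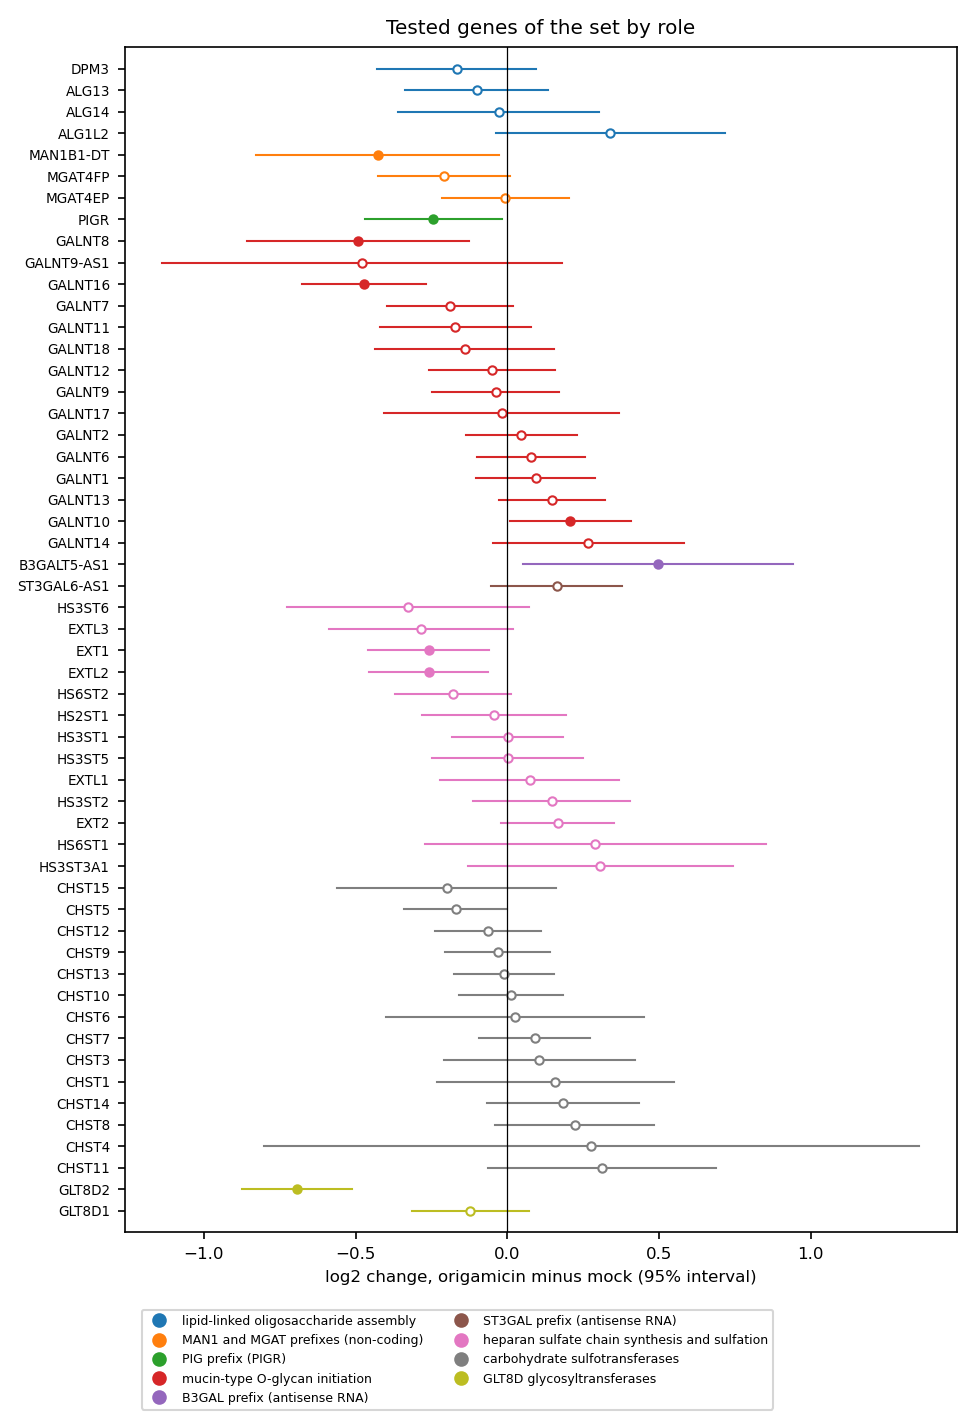
Log2 change (origamicin minus mock) of each of the 54 tested genes with its 95% interval, coloured by role or symbol prefix, with filled points for an unadjusted p under 0.05. The GALNT and heparan sulfate families spread to both sides of 0, the CHST family has no filled point, and GLT8D2, whose treated arrays lie under the dim filter, is lowest at -0.69.

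The set held 4 enzymes of the ER pathway that assembles the dolichol-linked precursor of N-glycans. Of these, 3 were lower and 1 higher, with a median of -0.06, and none had an unadjusted p under 0.05. ALG13 and ALG14, which together add the second sugar of the precursor, stood at -0.10 ± 0.09 and -0.03 ± 0.12. DPM3, a subunit that anchors dolichol-phosphate mannose synthase, stood at 7.28 and 7.25 in mock cells and at 7.21 and 6.99 in treated cells, a change of -0.17 ± 0.10. ALG1L2, which resembles the mannosyltransferase gene ALG1, stood at 4.02 and 4.39 in mock cells and at 4.51 and 4.58 in treated cells, at 0.34 ± 0.14 (adjusted p = 0.34 with limma). Probes of near-identical copies can share targets, so the value of ALG1L2 is uncertain. FUT2, the secretor fucosyltransferase, was dim in these cells at a mean of 3.54.

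Among the 9 members that encode no glycosylation enzyme, 7 were tested and 3 had an unadjusted p under 0.05, which is 42.9% of a small number beside 16.4% of all genes. B3GALT5-AS1, an antisense RNA at a galactosyltransferase locus, stood at 4.68 and 4.33 in mock cells and at 4.85 and 5.16 in treated cells. Its change of 0.50 ± 0.17 (adjusted p = 0.27 with limma) was 0.32 without mock replicate 2 and 0.34 without origamicin replicate 2, where the unadjusted p was 0.13 in both cases. MAN1B1-DT, a divergent transcript beside an ER mannosidase gene, stood at 5.55 and 5.78 in mock cells and at 5.41 and 5.07 in treated cells. The change of -0.43 ± 0.15 (adjusted p = 0.28 with limma) was -0.26 without origamicin replicate 2 (unadjusted p = 0.13) and -0.31 without mock replicate 2 (unadjusted p = 0.17). PIGR stood at 4.14 and 4.09 in mock cells and at 3.95 and 3.78 in treated cells, near the dim filter, at -0.24 ± 0.08 (adjusted p = 0.28 with limma). Without origamicin replicate 2 the PIGR change was -0.16 (unadjusted p = 0.15), and its p stayed under 0.05 in 6 of 11 alternatives.

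Sense and antisense transcripts of a locus could be set side by side at 2 loci. GALNT9 stood at -0.04 ± 0.08, and GALNT9-AS1 at -0.48 ± 0.25 with treated arrays at 4.30 and 3.59. HS6ST2 was at -0.18 ± 0.07, while the dim HS6ST2-AS1 lay at 3.44 and 3.42 in mock cells and at 3.83 and 3.91 in treated cells. ST3GAL6-AS1 stood at 0.16 ± 0.08 and ST8SIA6-AS1 was dim. The pseudogene MGAT4FP stood at -0.21 ± 0.08, but its other probe set, under the dim filter, differed by 0.42. MGAT4EP, just above the filter at a mean of 3.86, stood at -0.0063 ± 0.08. Over all 12 dim members, means ran from 2.48 to 3.77 and differences from -0.23 to 0.44.

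The rest of the glycosylation machinery was covered by 10 lists of 164 genes that the prefixes leave out. Of these, 112 were named and 108 tested, 61 higher and 47 lower, with a median of 0.0095. At an unadjusted p under 0.05, 16 were higher and 8 lower, 22.2% of those tested beside 16.4% of all genes. In the main limma fit 0 passed an adjusted p of 0.05. With an intensity trend 10 did, or 9.26% beside 4.3% of all genes. Tested genes of these lists that are named below without an adjusted p passed 0.05 in neither fit. No gene on the nucleotide sugar transporter list had a named probe set.

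In glycoprotein quality control, 8 of 10 tested genes were higher (80.0%, beside 47.8% of all genes; median 0.09). At an unadjusted p under 0.05 there were 3, or 30.0% beside 16.4%. PRKCSH encodes the beta subunit of glucosidase II, the enzyme that trims glucose from N-glycans. It stood at 11.18 and 11.15 in mock cells and at 11.50 and 11.44 in treated cells, a change of 0.31 ± 0.07. The lectin chaperones CALR (0.34 ± 0.07) and CANX (0.26 ± 0.06), which bind the trimmed glycans, were higher too. Adjusted p-values in the main limma fit were 0.18 for PRKCSH and CALR and 0.19 for CANX. With an intensity trend they were 0.015 for PRKCSH and CALR and 0.017 for CANX. UGGT1, which puts glucose back on misfolded glycoproteins, stood at 0.11 ± 0.06.

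Oligosaccharyltransferase subunits, which transfer the N-glycan to protein, were higher in 6 of 10 with a median of 0.10. KRTCAP2 (0.24 ± 0.08) had the sole unadjusted p under 0.05 (10.0% of the list, beside 16.4%), while RPN1 stood at 0.17 ± 0.07 and DAD1 at 0.15 ± 0.06. Among genes of dolichol synthesis and flipping, 4 of 6 were higher (66.7%, median 0.07) and 1 had an unadjusted p under 0.05 (16.7%). Dolichol kinase DOLK stood at 7.38 and 7.31 in mock cells and at 7.71 and 7.68 in treated cells. Its change was 0.36 ± 0.07 (adjusted p = 0.17 in the main limma fit, 0.031 with an intensity trend).

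Nucleotide sugar synthesis held the largest change of these lists. UAP1L1, similar to the enzyme that makes UDP-N-acetylglucosamine, stood at 6.73 and 6.54 in mock cells and at 7.38 and 7.46 in treated cells. The change of 0.79 ± 0.09 had an adjusted p of 0.10 in the main limma fit and of 0.0086 with an intensity trend. UAP1 itself stood at -0.13 ± 0.08. In the list, 12 of 21 genes were higher (median 0.0095), with 3 higher and 2 lower at an unadjusted p under 0.05 (23.8%, beside 16.4% of all genes). RENBP (0.35 ± 0.09) was higher, as was GFPT1, the entry enzyme of the hexosamine pathway (0.18 ± 0.07). GFUS, the last enzyme of GDP-fucose synthesis, was at -0.29 ± 0.07 and mannose phosphate isomerase MPI at -0.19 ± 0.06.

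The list of other O-linked sugars was the longest, with 25 genes tested (median 0.04). At an unadjusted p under 0.05, 6 were higher and 2 lower, 32.0% beside 16.4% of all genes. LFNG, which elongates O-fucose on Notch receptors, stood at 6.05 and 6.17 in mock cells and at 5.48 and 5.54 in treated cells. Its change was -0.60 ± 0.08 (adjusted p = 0.11 in the main limma fit, 0.028 with an intensity trend). Its relatives MFNG and RFNG stood at 0.20 ± 0.07 and 0.08 ± 0.07. The O-mannosyltransferase gene TMTC3 stood at 0.28 ± 0.08 and TMTC1 at 0.39 ± 0.06. Their adjusted p-values were 0.22 and 0.16 in the main limma fit, and 0.040 and 0.064 with an intensity trend. LARGE2, which extends matriglycan on dystroglycan, stood at -0.39 ± 0.07. EOGT, the ER enzyme for extracellular O-GlcNAc, stood at 0.29 ± 0.07. C1GALT1C1, the chaperone of the enzyme that adds galactose after the GALNT step, stood at 6.44 and 6.34 in mock cells and at 6.74 and 6.64 in treated cells, a change of 0.30 ± 0.08 (adjusted p = 0.21 with limma).

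The proteoglycan enzymes outside the set had 7 of 15 higher and a median of -0.02. SULF2, which removes 6-O-sulfates from heparan chains at the cell surface, stood at 9.73 and 9.61 in mock cells and at 9.10 and 9.26 in treated cells. The SULF2 change was -0.49 ± 0.09 (adjusted p = 0.17 in the main limma fit, 0.015 with an intensity trend). XYLT2, which starts the linkage region, stood at -0.27 ± 0.09 and the related XYLT1 at 0.13 ± 0.08. NDST1 and GLCE, which deacetylate and epimerise heparan chains, differed by -0.05 ± 0.07 and -0.02 ± 0.09. UST, SULF1, NDST3 and NDST4 were dim.

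For GPI anchors, 4 of 8 genes outside the set were higher (median -0.02). MPPE1, a phosphodiesterase that remodels the anchor, stood at 0.45 ± 0.07 (adjusted p = 0.16 in the main limma fit, 0.043 with an intensity trend). PGAP6 stood at 0.30 ± 0.08. In the conserved oligomeric Golgi (COG) list, which holds tethers that keep Golgi enzymes in place, 4 of 10 genes were higher (median -0.06). COG5 stood at 9.46 and 9.49 in mock cells and at 9.27 and 9.24 in treated cells. Its change was -0.22 ± 0.06 (adjusted p = 0.23 in the main limma fit, 0.044 with an intensity trend). Of 3 glycosphingolipid genes, GAL3ST1, the sulfatide-forming sulfotransferase, stood at -0.42 ± 0.13, while UGCG and UGT8 differed by 0.0063 and 0.0053.

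**Figure D4:**
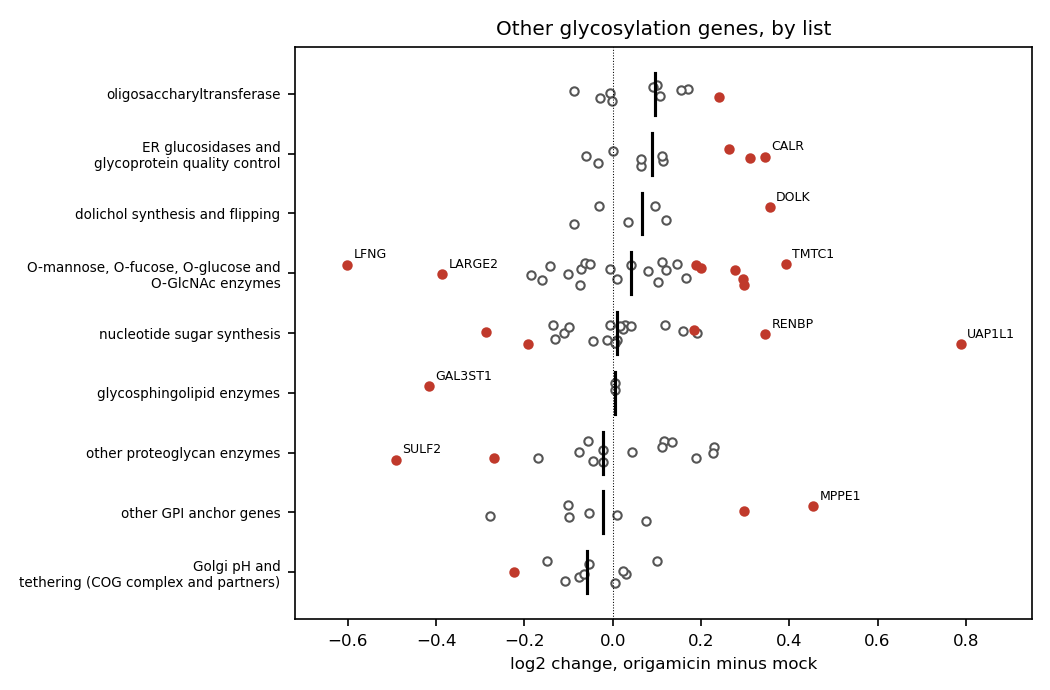
Log2 change (origamicin minus mock) of the 108 tested genes outside the set, 1 point per gene, in the 9 lists with a named gene, with a bar at each list's median and red points for an unadjusted p under 0.05. UAP1L1 at 0.79 and LFNG at -0.60 are the extremes, and the list medians run from -0.06 to 0.10.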

How the data were processed

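The authors deposited log2 expression values per probe set for 4 arrays, 53617 probe sets in all. The submitters' processing notes list RMA, which corrects background, quantile normalizes and summarises probes, and limma, both without versions. Genome build and annotation: not given in the sources used here. Array medians lay between 4.37 and 4.42, and the values were not normalized again.

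A platform annotation named 1 gene for 16098 probe sets. The named probe set with the highest mean was kept per gene, and genes with a mean under the 40th percentile of all probe sets were left out. limma 3.58.1 in R 4.3.3 (lmFit, eBayes, two-sided, no covariate) was run on all genes, with Benjamini-Hochberg adjustment over the 11883 tested. The fit was also run on simulated data with independent normal noise whose spread followed level alone. That does not show how it performs on these arrays. Array intensities have no counting depth, and the number of arrays limits precision. The rule for members reads symbols and no measured value, but it, the lists and the tests were chosen with earlier results of these data known. Named in full are members with an unadjusted p under 0.05, and per role the extremes. A planned comparison of member proteins was not run, since no protein sequences were used here. Alternatives were a replicate block, no filter, the 60th percentile filter, quantile normalization, equal array medians, averaged probe sets per gene, an intensity trend, robust eBayes and leaving out each array.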

Additional observations from a re-analysis of the deposited data

How the results depend on the processing

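At an unadjusted p under 0.05 there were 7 lower and 2 higher members. With equal array medians or quantile normalization there were 9 lower and 1 higher. The 60th percentile filter also gave 9 lower and 1 higher, but it tested only 36 members. That was 27.8% of them, beside 21.0% of all genes in that setting. GLT8D2, PIGR and B3GALT5-AS1 were not among the 36. Leaving out 1 array gave 1 to 5 higher and 3 to 8 lower, with 3 lower and 1 higher without origamicin replicate 2 and 5 higher without mock replicate 2. The median change of the members was -0.0037 with no filter, -0.035 with the 60th percentile filter, -0.031 with equal array medians and -0.028 with the mean of the probe sets. It ran from -0.044 to 0.017 when 1 array was left out, and was positive without origamicin replicate 2. With 1 array left out, the share of all genes under an unadjusted p of 0.05 was also lower than with every array. The members' share lay below that of all genes without origamicin replicate 2, and above it when any other array was left out. The counts alone therefore do not compare the members with the background. The cause of these moves was not tested. No member changed direction among the 9 named, in any alternative that tested it. Where 1 array was left out this was fixed in advance, since the groups of all 9 do not overlap. The other alternatives kept the same change or nearly so, and the unchanged directions therefore add no support. GALNT16 stayed under an unadjusted p of 0.05 in all 12 alternatives and GLT8D2 in the 11 that kept it. All alternatives reuse the same arrays, so this is no independent support. For GLT8D2 a lower treated level was favoured by the main filter, since its treated mean of 3.79 lay under the limit of 3.82. The 60th percentile filter left this gene out.

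The replicate numbers share only a number: deviations of same-numbered arrays from their group means correlated at -0.02. With these numbers as a replicate block, 1 member was higher and 7 lower at an unadjusted p under 0.05 (14.8%, beside 14.5% of all genes). Of the 9 named members, 6 stayed under it. GALNT10, B3GALT5-AS1 and MAN1B1-DT did not, with limma p-values of 0.050, 0.076 and 0.082. Background at low signal limits the dim members most.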
